A study of Mus musculus with 6 samples.

Results

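The 43 genes described here encode the T cell receptor (TCR) complex and the proteins that act in the first steps below it, as expressed by mouse Th17 cells made in culture with or without desIgf1. They were given as a list of gene names and were matched by symbol to the 39179 Ensembl genes of the count files. All 43 were found, and all 43 passed the filter on low counts that left 13846 genes to test. desIgf1 is a shortened form of insulin-like growth factor 1 (IGF-1) that binds weakly to the IGF-binding proteins.

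Naive CD4+ T cells of C57BL/6 mice were the starting cells in both groups, and the labels give spleen as the tissue. The mice carried the reporters IL17a/hCD2, Ifng/Thy1.1 and Foxp3/GFP in both groups. Each culture lasted 5 days and held anti-CD3 in solution (5 µg/mL), splenocytes that had been irradiated and freed of CD4+ cells, IL6 (20 ng/mL), TgfB (2.5 ng/mL), and the blocking antibodies anti-Ifng and anti-IL4 (10 µg/mL each). The desIgf1 group (3 libraries) received 30 ng/mL desIgf1 on top, and the control group (3 libraries) received none. RNA came from sorted cells that were positive for hCD2 and negative for GFP and Thy1.1, that is, cells with the Il17a reporter on and the Foxp3 and Ifng reporters off. The protocol text names desIgf1 for all 6 libraries, whereas the titles and the series design separate cultures with it from cultures without it, so the groups follow the titles.

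The TCR of most CD4+ T cells pairs an alpha and a beta chain, which recognise a peptide on an MHC molecule but have almost no tail inside the cell. The signal leaves through the CD3 gamma, delta and epsilon chains and the zeta chain (gene Cd247), which the kinase Lck phosphorylates and to which the kinase ZAP-70 then binds. ZAP-70 phosphorylates the scaffolds LAT and SLP-76 (gene Lcp2), and enzymes gathered there start the calcium and NFAT, the RAS and ERK, and the NF-kB branches. A set of phosphatases, ubiquitin ligases and lipid kinases limits each step. In these cultures the anti-CD3 antibody stands in for the peptide and binds the CD3 epsilon chain, and Th17 cells need this signal together with IL-6 and TGF-β to form.

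The beta chain constant region has a pair of near-identical genes, and their sequences show how far the counts of each can be taken apart. Trbc1 lies at chr6:41538218-41539881 and Trbc2 at chr6:41546730-41548352 (GRCm38, GENCODE M21). Both coding sequences have 521 bases, of which 23 differ (95.59% identity), and the first 259 bases are the same in both. A read that lies wholly within that stretch matches both genes, and alignments marked as not unique are not in the gene counts, so the values of both genes are uncertain as levels. Bases 241 to 521 of each coding sequence follow, with the bases that differ in capitals.

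Trbc1: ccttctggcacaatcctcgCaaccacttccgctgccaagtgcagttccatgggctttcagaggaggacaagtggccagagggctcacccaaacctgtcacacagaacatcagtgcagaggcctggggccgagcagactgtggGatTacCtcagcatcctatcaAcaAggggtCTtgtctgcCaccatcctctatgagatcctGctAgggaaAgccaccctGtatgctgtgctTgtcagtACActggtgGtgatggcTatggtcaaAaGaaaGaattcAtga
Trbc2: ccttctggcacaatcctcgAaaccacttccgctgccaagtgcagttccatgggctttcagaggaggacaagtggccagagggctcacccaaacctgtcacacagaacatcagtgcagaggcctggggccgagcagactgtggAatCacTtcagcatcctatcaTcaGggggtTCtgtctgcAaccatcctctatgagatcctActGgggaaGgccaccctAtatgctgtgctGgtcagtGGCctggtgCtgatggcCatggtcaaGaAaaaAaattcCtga

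The genes of the CD3 gamma, delta and epsilon chains lie side by side on chromosome 9, and they are shown because Cd3g is among the members whose groups did not overlap and its neighbours are not. Cd3g (chr9:44969572-44980431, minus strand) and Cd3d (chr9:44981786-44987339, plus strand) point away from each other, with their RefSeq starts 1355 bases apart, and the Cd3e start lies 27825 bases from that of Cd3d. The 250 bases before each RefSeq start (GRCm38.p6) are printed on the strand of the gene. Capitals mark AGGAAG on either strand, a longer form of GGAA, the core bound by ETS-family factors. GGAA within other letters is left unmarked and is present in each window on at least one strand. The windows are chr9:44980432-44980681 for Cd3g (minus strand), chr9:44981536-44981785 for Cd3d (plus strand) and chr9:45009612-45009861 for Cd3e (minus strand), where the GENCODE M21 start of the gene lies just inside the window.

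Cd3g: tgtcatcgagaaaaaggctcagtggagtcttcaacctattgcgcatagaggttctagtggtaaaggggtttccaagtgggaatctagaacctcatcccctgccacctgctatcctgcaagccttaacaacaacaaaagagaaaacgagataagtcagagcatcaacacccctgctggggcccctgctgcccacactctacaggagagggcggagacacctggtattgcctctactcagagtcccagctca
Cd3d: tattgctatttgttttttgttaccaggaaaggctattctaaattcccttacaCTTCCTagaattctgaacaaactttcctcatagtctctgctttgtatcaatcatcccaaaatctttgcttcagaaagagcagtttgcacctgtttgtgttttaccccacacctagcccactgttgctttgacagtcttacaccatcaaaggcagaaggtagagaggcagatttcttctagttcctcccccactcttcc
Cd3e: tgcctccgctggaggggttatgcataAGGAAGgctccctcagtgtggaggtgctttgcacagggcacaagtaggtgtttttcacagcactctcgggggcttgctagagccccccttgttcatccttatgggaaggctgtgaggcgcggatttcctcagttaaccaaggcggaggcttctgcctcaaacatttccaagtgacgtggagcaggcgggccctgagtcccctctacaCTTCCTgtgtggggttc

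The Cd3g window held 0 matches to AGGAAG on either strand, the Cd3d window 1 and the Cd3e window 2. The same 6 letters were found in 29.5% of all 32851 windows of the table, and in 29 of the 48 windows of members (60.4%), which belong to the 32 members that had one. Some members had several windows (Dgka had 4), so these windows are not independent. Counted by member, 22 of the 32 had a window with the letters. The difference between the shares was not tested. A match is a description of these letters and not a measured binding site.

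Counts in genes summed to 34567899 to 47929948 per library, and the lowest count of any member in any library was 626 (Nck1). Values are given as CPM, counts per 1000000 counts of the library after scaling with TMM factors. The summed CPM of the 7 markers of CD4 T and Th17 cells was 4323 to 4965 in the desIgf1 libraries and 3707 to 4272 in the control libraries, and these ranges did not overlap. The 4 CD8 T cell markers summed to 6.18 to 14.4 CPM with desIgf1 and to 3.81 to 11.3 CPM in controls, with Cd8a at 0 to 0.103 and Cd8b1 at 3.22 to 10.9. The 5 NK cell markers summed to 2.67 to 3.58 and to 2.60 to 3.14 CPM, with Ncr1 and Klra8 at 0 in every library and Klrb1c at 1.90 to 2.48. The 6 dendritic cell markers summed to 1.02 to 3.31 and to 0.745 to 2.29 CPM, with Xcr1 and Siglech at 0 and Zbtb46 at 0.285 to 1.59, and the 5 neutrophil markers to at most 0.190 and 0.716 CPM, with Elane at 0. The 8 B cell markers summed to 57.6 to 98.0 CPM with desIgf1 and to 72.5 to 175 CPM in controls, of which Ighm alone gave 55.6 to 171. The 8 macrophage and monocyte markers summed to 150 to 177 and to 92.4 to 183 CPM, mostly Ctss, and Csf1r stayed at 0.165 to 0.515. Their part in the results was not tested.

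With edgeR's quasi-likelihood test, 0 of the 43 members passed an adjusted p of 0.05, and 0 of all 13846 tested genes did (0%). At an unadjusted p under 0.05, 5 members were found (Cblb, Ptprc, Cd3g and Bcl10 higher with desIgf1, Dgka lower), against 8.16% of all tested genes. The share of members, 11.6%, was near that background. With the replicate number as a block the unadjusted count was 8 (14.3% of all tested genes), with Themis, Thy1 and Ubash3a in addition, and 0 members passed the adjusted threshold (0.318% of all tested genes did). limma voom called 0 members (0% of all tested genes), and DESeq2 called 2, Dgka and Cblb (1.48% of all tested genes).

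The groups did not overlap in CPM for 6 of the 43 members (13.5% of all tested genes), 5 of them higher with desIgf1 (7.31%) and 1 lower (6.18%). Of the members, 13 were higher with desIgf1 in all 3 same-numbered pairs of libraries (20.9% of all tested genes) and 6 were lower in all 3 (17.2%). The median log2 fold change over the 43 members was 0.03, beside -0.01 over all tested genes, with 27 values above and 16 below 0. The median size of the change was 0.10 on the log2 scale, beside 0.17 over all tested genes, and 4 members (14.2% of all tested genes) differed by at least 0.5. In bulk RNA such a difference cannot tell fewer cells of a type from less RNA per cell.

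**Figure D1:**
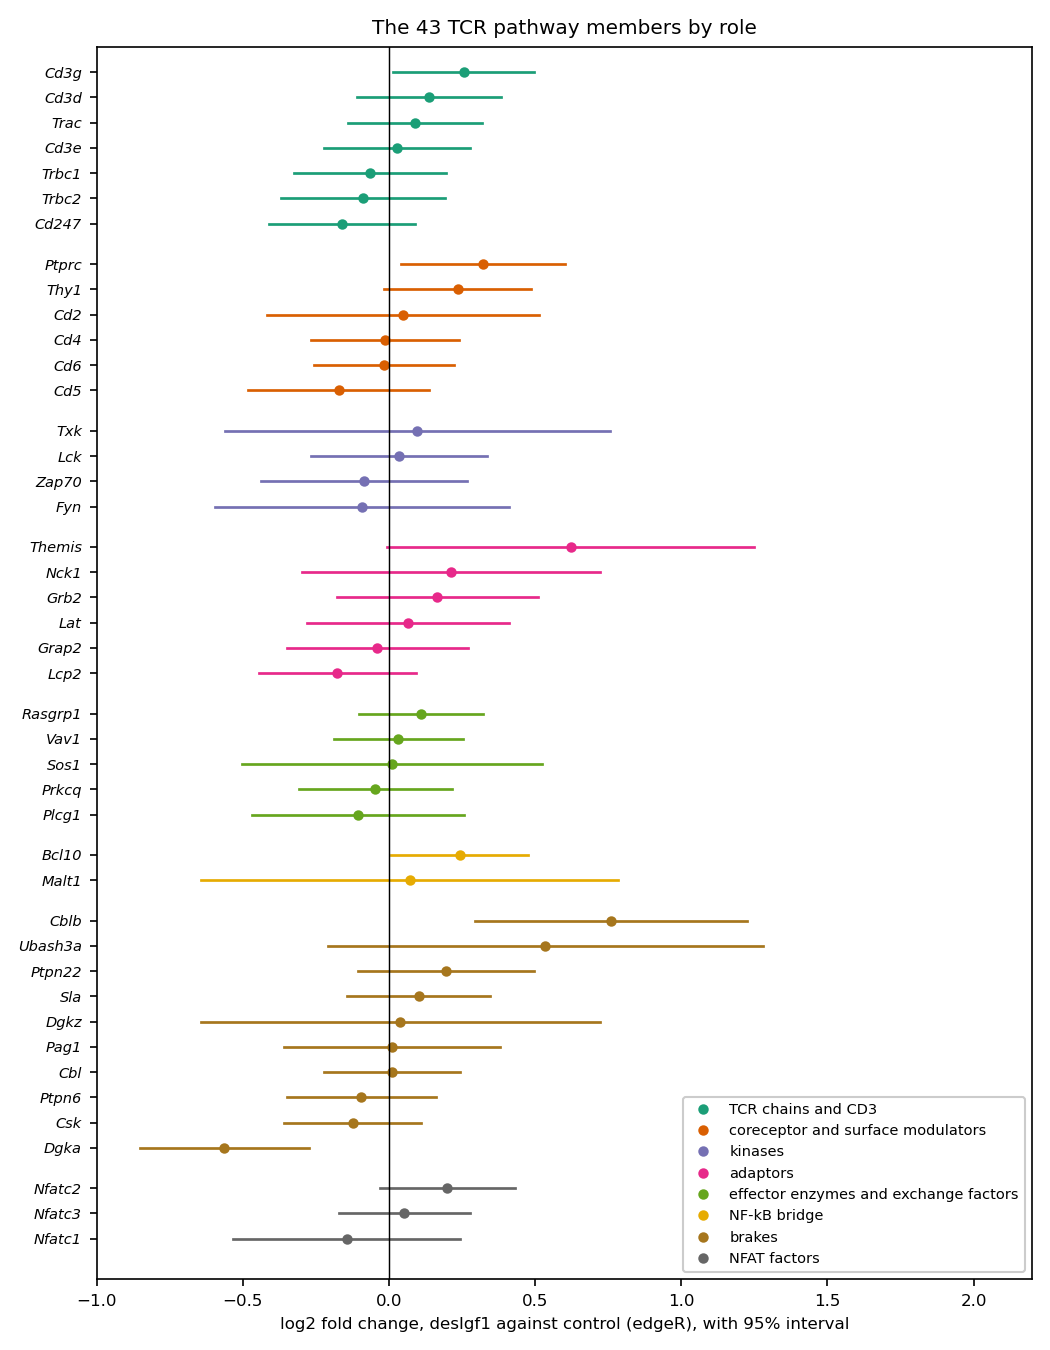
Fitted log2 fold changes of the 43 members, desIgf1 against control, grouped by role, with points for the edgeR estimate and bars for its 95% interval. Most intervals cross 0, Cblb lies farthest to the right at 0.76 and Dgka farthest to the left at -0.56.

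Of the 7 genes of the receptor itself, the 3 constant genes gave close values in both groups. In this paragraph and below, CPM values stand in the order of libraries 1, 2 and 3 of a group. Trac, the alpha chain constant gene, was at 638, 733 and 682 CPM in the desIgf1 libraries, against 641, 615 and 673 CPM in the controls. Trbc1 was at 231, 234 and 263 CPM against 246, 230 and 285 CPM. Trbc2 was at 380, 397 and 456 CPM against 407, 413 and 492 CPM. The groups overlapped for all 3 constant genes, with log2 fold changes of 0.09 (95% interval -0.14 to 0.32) for Trac, -0.06 (-0.33 to 0.20) for Trbc1 and -0.09 (-0.37 to 0.19) for Trbc2. The value for Trac was 0.034 without desIgf1 library 2. The signs for Trbc1 and Trbc2 turned when control library 3 was left out (0.029 and 0.0047).

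Of the signalling chains, Cd3g differed most between the groups. Cd3g was at 638, 748 and 665 CPM in the desIgf1 libraries, against 562, 548 and 607 CPM in the controls. Every desIgf1 library lay above every control library, and edgeR gave a fold change of 1.19 (95% interval 1.01 to 1.41) with an unadjusted p of 0.0402 and an adjusted p of 0.601. Its neighbour Cd3d was at 546, 628 and 559 CPM against 544, 482 and 551 CPM, higher in each pair but with overlapping groups, and its log2 fold change was 0.14 (-0.11 to 0.38), and 0.068 without desIgf1 library 2 or 0.078 without control library 2. Cd3e was at 436, 453 and 411 CPM against 432, 380 and 463 CPM, with the control libraries on both sides of the desIgf1 libraries. Its log2 fold change was 0.03 (-0.22 to 0.28) and turned to -0.04 without control library 2 and to -0.01 without desIgf1 library 2.

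The zeta chain gene Cd247 had a log2 fold change with the opposite sign to that of Cd3g. It was at 598, 641 and 687 CPM in the desIgf1 libraries, against 718, 658 and 777 CPM in the controls, lower in each pair. The groups overlapped, and the log2 fold change was -0.16 (-0.41 to 0.09; edgeR unadjusted p 0.175, adjusted p 0.683), and -0.099 without control library 3. Cd247 shares its strand with the noncoding gene Gm16565, which held 534 to 725 counts per library beside 23887 to 33249 for Cd247. The gene Pou2f1 overlaps Cd247 on the opposite strand, with 14367 counts over all libraries beside 172083 for Cd247.

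Among the coreceptor and surface genes, Ptprc and Thy1 had groups that did not overlap. Ptprc encodes CD45, the phosphatase that keeps Lck ready to act. It was at 1630.1, 1702 and 1571 CPM in the desIgf1 libraries, against 1277, 1150.0 and 1493 CPM in the controls. All 3 desIgf1 libraries were higher than all 3 controls, though desIgf1 library 3 and control library 3 lay close together, at a fold change of 1.25 (95% interval 1.03 to 1.52; edgeR unadjusted p 0.0293, adjusted p 0.561).

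Thy1, a lipid-anchored surface protein of T cells, was at 1069, 1125 and 1224 CPM in the desIgf1 libraries, against 938, 903 and 1063 CPM in the controls. The lowest desIgf1 library was just above the highest control, and the log2 fold change was 0.23 (-0.02 to 0.49) with an unadjusted p of 0.0640 in edgeR and 0.0378 with the replicate block, and adjusted p of 0.620 and 0.317. Without desIgf1 library 3 the log2 fold change was 0.15. The Ifng reporter of these mice makes Thy1.1, a variant of the Thy1 protein, the cells were sorted for its absence, and Ifng had 1 to 28 counts per library. Reads of the reporter were not measured, and its part in the Thy1 counts was not tested.

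Cd4, the coreceptor that brings Lck to the TCR, was at 1701, 1950.1 and 1657 CPM in the desIgf1 libraries, against 1784, 1905 and 1672 CPM in the controls. The groups overlapped almost fully, with a log2 fold change of -0.01 (-0.27 to 0.24), whose sign turned on leaving out control library 2, desIgf1 library 1 or desIgf1 library 3 (0.035, 0.014 and 0.0043). The adhesion receptor Cd2 and the inhibitory surface proteins Cd5 and Cd6 had log2 fold changes of 0.05 (-0.42 to 0.51), -0.17 (-0.48 to 0.14) and -0.02 (-0.26 to 0.22).

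**Figure D2:**
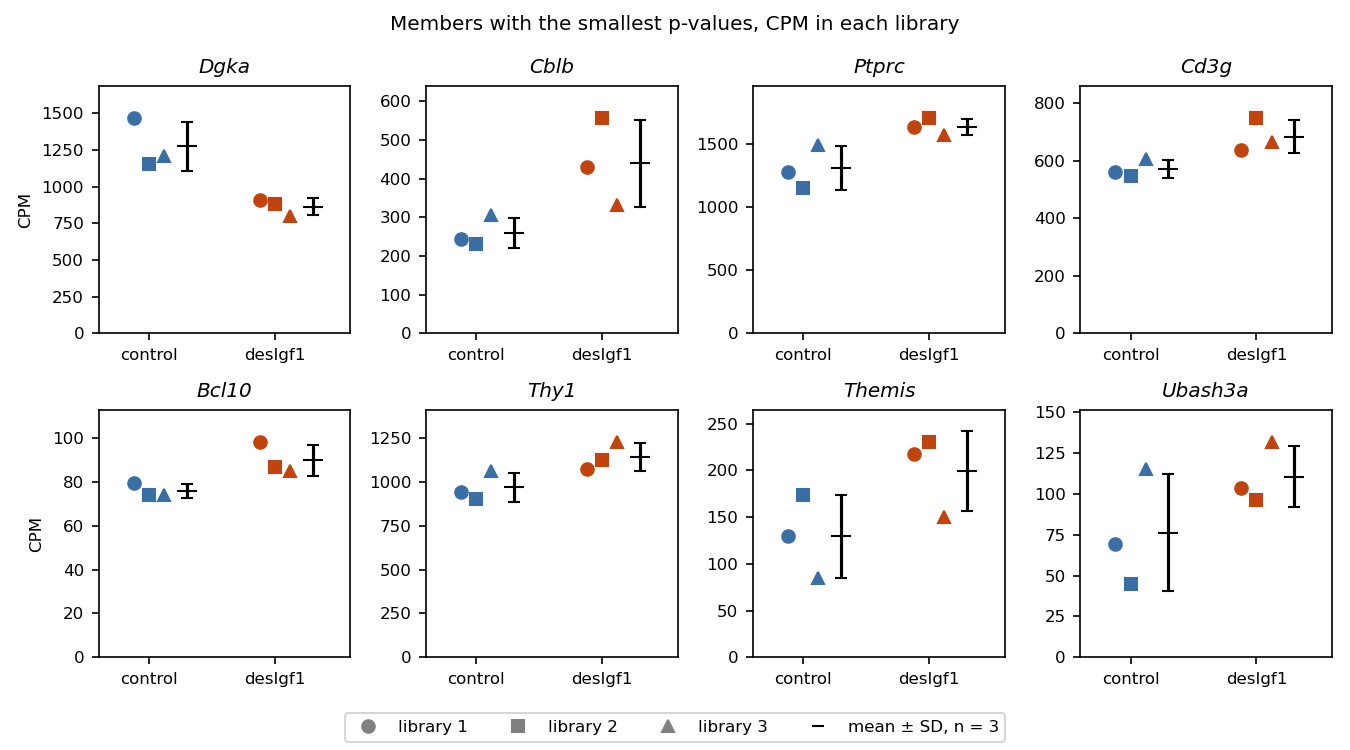
CPM in each library for the 8 members with an unadjusted p under 0.05 with or without the replicate block, with a symbol per library number and bars for mean ± SD (n = 3). Dgka is lower and Cblb, Ptprc, Cd3g, Bcl10 and Thy1 are higher in every desIgf1 library than in every control library, whereas Themis and Ubash3a overlap but are higher in each same-numbered pair.

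The 4 kinases gave no difference beyond the spread between libraries. Lck, which phosphorylates the CD3 and zeta chains, was at 971, 978 and 1143 CPM in the desIgf1 libraries, against 927, 934 and 1159 CPM in the controls. Zap70 was at 400, 427 and 498 CPM against 430, 412 and 564 CPM. For both genes the number 3 libraries of both groups were the highest, and the log2 fold changes were 0.03 (-0.27 to 0.33) and -0.08 (-0.44 to 0.27). The sign for Lck turned without control library 1 or 2 or desIgf1 library 3 (-0.02, -0.02 and -0.07), and that for Zap70 without control library 3 (0.07). Fyn, a second SRC-family kinase, and Txk, of the TEC family, gave -0.09 (-0.60 to 0.41) and 0.10 (-0.56 to 0.76).

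Of the 6 adaptors, Themis had the largest log2 fold change. THEMIS binds GRB2 and the phosphatase SHP-1 and is known for its role in the selection of thymocytes. Themis was at 217, 230 and 151 CPM in the desIgf1 libraries, against 130, 174 and 84.4 CPM in the controls. It was higher with desIgf1 in each pair and lowest in the number 3 library of each group, so that desIgf1 library 3 lay below control library 2. edgeR gave a fold change of 1.54 (95% interval 0.995 to 2.38), with an unadjusted p of 0.0520 and an adjusted p of 0.608, and with the replicate block 0.00116 and 0.0997. With the block it passed the adjusted threshold when the number 2 libraries (adjusted p 8.972e-05) or the number 3 libraries (0.0277) were left out, but not without the number 1 libraries (0.388), and the adjusted p over all alternatives reached up to 0.9995. Its log2 fold change was 0.62, and 0.39 without control library 3.

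Lat, the membrane scaffold, was at 472, 425 and 564 CPM in the desIgf1 libraries, against 470, 399 and 526 CPM in the controls. It was higher in each pair by little, the groups overlapped, and the log2 fold change of 0.07 (-0.28 to 0.41) turned to -0.03 without control library 2 and to -0.08 without desIgf1 library 3. Lcp2, which encodes the scaffold SLP-76, gave -0.18 (-0.44 to 0.09). The remaining adaptors, Grb2, Grap2 (GADS, which links SLP-76 to LAT) and Nck1, gave 0.17 (-0.18 to 0.51), -0.04 (-0.35 to 0.27) and 0.21 (-0.30 to 0.72).

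The 5 effector enzymes and exchange factors had log2 fold changes between -0.11 and 0.11, all with overlapping groups. Plcg1, whose product cuts the membrane lipid that yields the calcium signal and diacylglycerol, gave -0.11 (-0.47 to 0.26). The gene Zhx3 overlaps Plcg1 on the opposite strand, with 6048 counts over all libraries beside 148074 for Plcg1. Vav1, an exchange factor for RAC, gave 0.03 (-0.19 to 0.25). Rasgrp1 and Sos1, which load RAS, gave 0.11 (-0.10 to 0.32) and 0.01 (-0.50 to 0.52), and Prkcq, the protein kinase C of the synapse, gave -0.05 (-0.31 to 0.22).

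Of the pair that links protein kinase C to NF-kB, Bcl10 was higher with desIgf1 in every library. It was at 97.9, 86.6 and 84.9 CPM in the desIgf1 libraries, against 79.5, 74.1 and 74.1 CPM in the controls. The groups did not overlap, and the fold change was 1.183 (95% interval 1.01 to 1.39; edgeR unadjusted p 0.0440, adjusted p 0.608). Malt1, the protease that BCL10 activates, was at 1012, 1255 and 627 CPM against 969, 1177 and 609 CPM, so that the values differed more by library number than by group (log2 fold change 0.07, -0.64 to 0.78).

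The 10 brakes held the highest and the lowest log2 fold change among the members, those of Cblb and Dgka. Dgka (chr10:128720134-128744855) encodes diacylglycerol kinase alpha, which removes the diacylglycerol that activates RASGRP1 and protein kinase C. It was at 910, 883 and 798 CPM in the desIgf1 libraries, against 1465, 1152 and 1209 CPM in the controls. Every desIgf1 library was below every control, at a fold change of 0.677 (95% interval 0.555 to 0.827), with an unadjusted p of 0.00220 and an adjusted p of 0.328 in edgeR, and 0.00154 and 0.109 with the replicate block. DESeq2 called it at an adjusted p of 0.0115, and the blocked fit without the number 2 libraries at 0.000251. Over all alternatives its log2 fold change lay between -0.64 and -0.45 and its adjusted p reached up to 0.9995.

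Cblb (chr16:52031225-52208048) encodes the ubiquitin ligase CBL-B, a limiter of T cell activation in the absence of costimulation. It was at 430, 556 and 332 CPM in the desIgf1 libraries, against 243, 230 and 305 CPM in the controls. The groups did not overlap, but they nearly met in the number 3 libraries, where the difference on the log2 scale was 0.12, beside 0.82 and 1.27 for numbers 1 and 2. The fold change was 1.69 (95% interval 1.23 to 2.34), with an unadjusted p of 0.00584 and an adjusted p of 0.406 in edgeR. DESeq2 called it at an adjusted p of 0.0420, and the blocked fit without the number 3 libraries at 0.00364. Over all alternatives the adjusted p reached up to 0.9995, and the log2 fold change lay between 0.47 and 1.05, the lowest without the number 2 libraries.

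Ubash3a encodes STS-2, a suppressor of TCR signalling. It was at 103, 96.4 and 131 CPM in the desIgf1 libraries, against 69.0, 44.7 and 115 CPM in the controls. Ubash3a was higher with desIgf1 in each pair and highest in the number 3 library of each group, and the groups overlapped because control library 3 lay above desIgf1 libraries 1 and 2. The log2 fold change was 0.53 (-0.21 to 1.28), with an unadjusted p of 0.134 and an adjusted p of 0.658 in edgeR, and 0.0130 and 0.220 with the replicate block. Without the number 3 libraries the blocked fit called it (adjusted p 0.00984), and over all alternatives the adjusted p reached up to 0.9995. Its log2 fold change was 0.96 without control library 3 and 0.26 without control library 2.

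The other 7 brakes had log2 fold changes between -0.12 and 0.20 and overlapping groups. Csk, which phosphorylates the inhibitory site of Lck, and its membrane anchor Pag1 gave -0.12 (-0.36 to 0.11) and 0.01 (-0.36 to 0.38). The phosphatase genes Ptpn6 (SHP-1) and Ptpn22 gave -0.09 (-0.35 to 0.16) and 0.20 (-0.10 to 0.50). The ubiquitin ligase Cbl, a relative of Cblb, gave 0.01 (-0.22 to 0.24). Dgkz, another diacylglycerol kinase of T cells, gave 0.04 (-0.64 to 0.72) and Sla, an adaptor that lowers surface TCR, 0.10 (-0.14 to 0.35). Sla lies across from Tg on the opposite strand, and Tg held 2771 to 8294 counts per library beside 18136 to 28348 for Sla. Whether the counting used the strand is not given in the sources used here. The names of the count files hold the word reverse, which no source explains. Both genes are therefore uncertain, and the same limit applies to Cd247 and Plcg1.

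The 3 NFAT factors, which move to the nucleus when calcineurin removes their phosphates, gave -0.14 (-0.53 to 0.25) for Nfatc1, 0.20 (-0.03 to 0.43) for Nfatc2 and 0.05 (-0.17 to 0.28) for Nfatc3. All 3 had overlapping groups, and their mRNA levels do not show where the proteins were.

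The number 3 libraries of both groups stood apart from the other 4 for a set of members. Both number 3 libraries lay below the other 4 for 7 members (12.5% of all tested genes), namely Cd4, Cd2, Txk, Nck1, Sos1, Prkcq and Malt1. Both lay above the other 4 for 11 members (15% of all tested genes), namely Trbc1, Trbc2, Lck, Fyn, Zap70, Lat, Grb2, Ptpn6, Ubash3a, Dgkz and Nfatc1. Malt1 was at 627 and 609 CPM in these libraries and at 969 to 1255 CPM in the other 4, and the number accounted for 99.3% of its sum of squares on the log2 CPM scale. Dgkz was at 909 and 1098 CPM there and at 534 to 680 CPM elsewhere.

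Over the 43 members, the number took a median of 47.3% of the sum of squares around a member's mean and the group 13.0%, beside 44.8% and 17.8% over all tested genes. The number took more than the group in 29 of the 43 members and in 9334 of the 13846 tested genes. The number has 2 degrees of freedom and the group 1, which by itself favours the number, so these shares are no result about the members. By role, the median share of the number was 89.0% in the 4 kinases and 70.3% in the 6 adaptors, and 20.2% in the 7 receptor genes. What the number stands for is not stated in the labels. The median difference between the libraries of a pair was -0.01, 0.20 and -0.01 on the log2 scale for numbers 1, 2 and 3, beside 0.00, 0.04 and 0.00 over all tested genes.

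**Figure D3:**
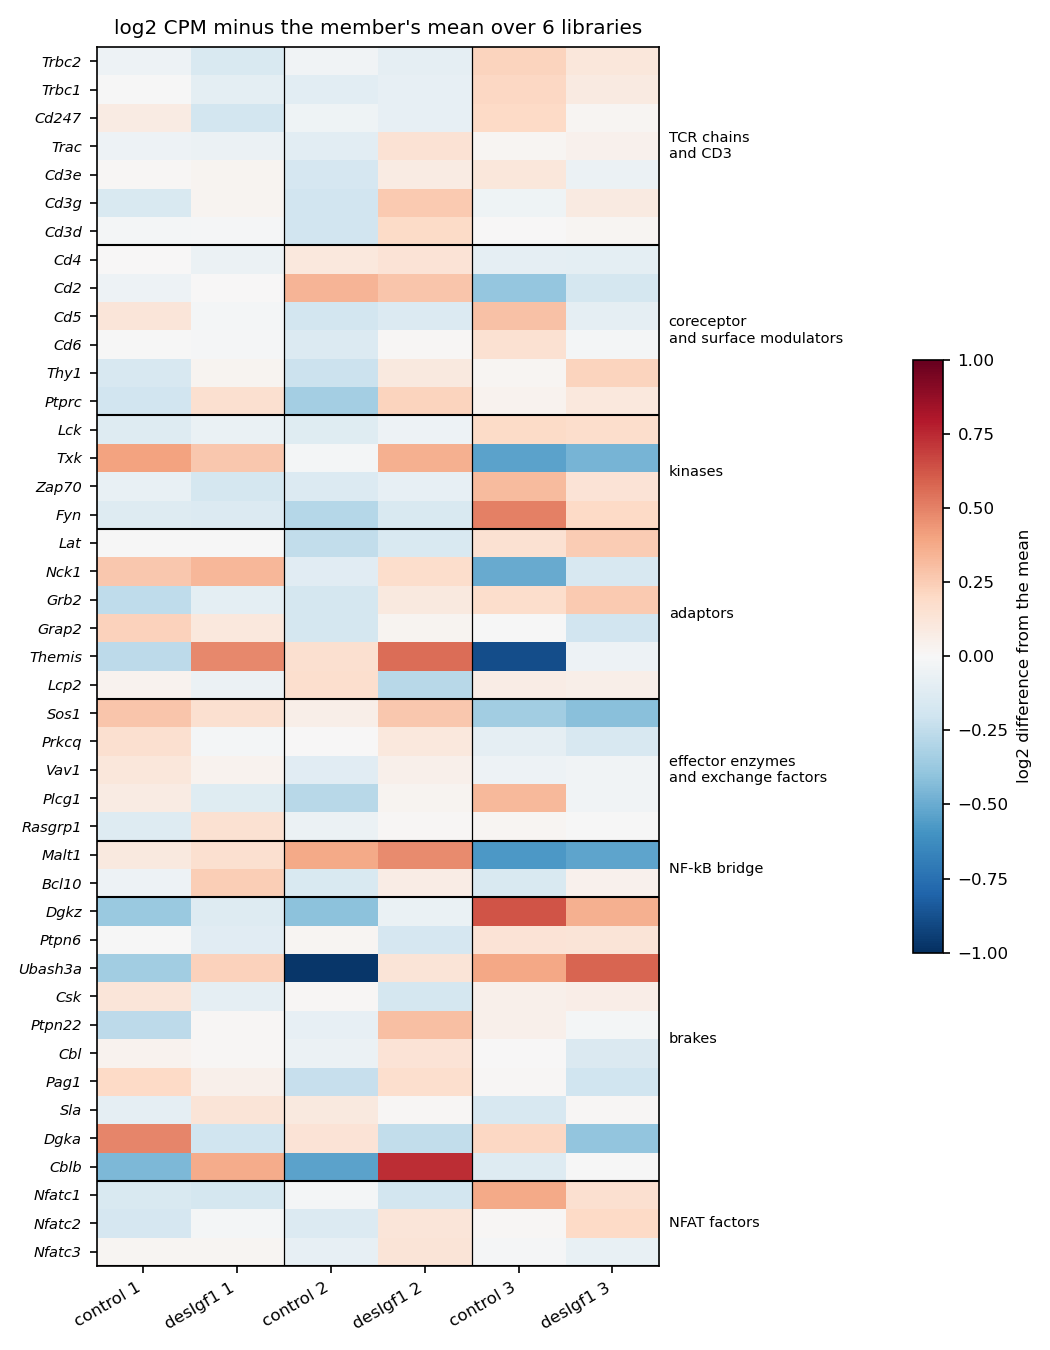
log2 CPM of each member minus its mean over the 6 libraries, with columns by library number and group and rows by role, red for higher and blue for lower. The 2 columns of number 3 share most of their colours, as for Malt1 in blue and Dgkz in red, whereas Dgka changes from red to blue between control and desIgf1 within every number, and Cblb from blue to red within numbers 1 and 2.

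Levels of different genes were compared per length, as RPKM, the CPM per 1000 bases of the union of exons. In controls Trac was the highest member at 687 ± 31.2 RPKM (SD, n = 3), followed by Trbc2 at 632 ± 68.9, Cd4 at 443 ± 29.0, Lck at 344 ± 45.1, Trbc1 at 339 ± 38.3 and Thy1 at 323 ± 28.0. Trac and Trbc2 lay within their spread of each other, and so did Lck, Trbc1 and Thy1, while Cd4 stood between these sets by more than its SD. This order holds for the union of exons, and with the longest transcript Cd4 (575 ± 37.6) and Thy1 (558 ± 48.3) lay within their spread of each other and above Lck (461 ± 60.5) and Trbc1 (344 ± 39.0). The values of Trbc1 and Trbc2 leave out reads that match both genes, so their places are uncertain with either length. The CD3 chains were lower and unequal per length, with Cd3d at 290 ± 21.0, Cd3g at 175 ± 9.39, Cd247 at 135 ± 11.2 and Cd3e at 104 ± 10.2 RPKM. With the longest transcript Cd247 (243 ± 20.1) and Cd3g (225 ± 12.1) changed places.

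By the union of exons Dgka was the ninth member in level, at 268 ± 35.1 RPKM in controls and 181 ± 12.3 with desIgf1, above Lat (168 ± 23.2), Zap70 (157 ± 27.7) and Dgkz (116 ± 51.3). Cblb was at 24.8 ± 3.81 RPKM in controls and 42.0 ± 10.7 with desIgf1, and Cbl at 15.5 ± 0.517 in controls. The lowest members were Txk, Nck1, Sos1 and Pag1, at 5.65 ± 1.78, 5.01 ± 1.33, 4.72 ± 1.001 and 2.60 ± 0.381 RPKM. Of the 43 members, 30 lay above the 90th percentile of tested genes, Trac at 98.8 and Pag1 at 33.0. The median member was at 77.6 RPKM, and at 119 RPKM when the longest transcript gave the length, so levels and their order depend on the gene model. Ptprc, for example, was at 71.4 ± 9.47 RPKM by the union of exons and at 228 ± 30.2 by the longest transcript in controls.

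**Figure D4:**
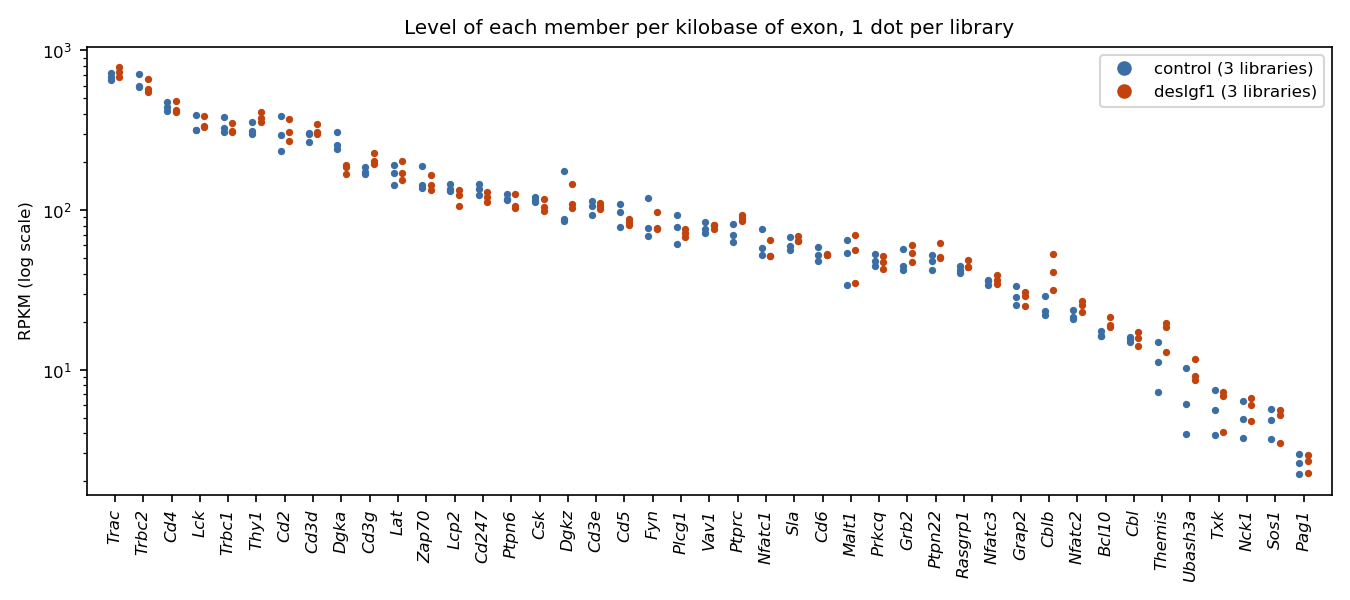
RPKM over the union of exons on a log scale for each member, with 1 dot per library, ordered by the control mean. Trac, Trbc2 and Cd4 lie at the top and Pag1 at the bottom at 2.60 RPKM. The dots of the groups separate for Dgka and nearly meet for Cblb. Trbc1 and Trbc2 are uncertain as levels, since reads that match both are not counted.

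The gene segments that are joined to the constant regions were read as a check of the kind of T cell and of the breadth of the receptors. The 22 Trbv genes in the files summed to 501 to 568 CPM per library and the 103 Trav genes, 74 of them with counts, to 107 to 137 CPM. The 5 Trdv genes summed to 0.859 to 1.90 CPM and the 1 Trgv gene to at most 0.401 CPM. The constant genes of the gamma and delta chains were not matched by symbol and were not analysed here. Trbc1 made up 37.2 ± 0.584% (SD, n = 3) of the counts of both beta constant genes with desIgf1 and 36.7 ± 0.973% in controls.

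Trbv13-2 had the highest share of the beta segments in every library, at 16.17, 15.23 and 17.997% of Trbv counts with desIgf1 and 18.48, 17.64 and 20.33% in controls. It was lower with desIgf1 in each pair while the groups overlapped, and its share differed the most of all segments, by 2.35 percentage points between the group means. Trbv31 made up 7.76 ± 0.694% and 9.02 ± 0.839% (SD, n = 3), and Trbv1 7.24 ± 0.541% and 7.66 ± 1.64%. None of the 21 Trbv segments tested with edgeR passed an adjusted p of 0.05. The groups did not overlap in CPM for Trbv3, Trbv5, Trbv26 and Trbv17, all higher with desIgf1 and named here after their values were seen. Their unadjusted p in edgeR were 0.0458, 0.0133, 0.0311 and 0.0774. Of all tested genes, 7.31% were higher with desIgf1 with groups that did not overlap. The largest Trav segment made up 4.17 to 5.68% of Trav counts in any library.

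**Figure D5:**
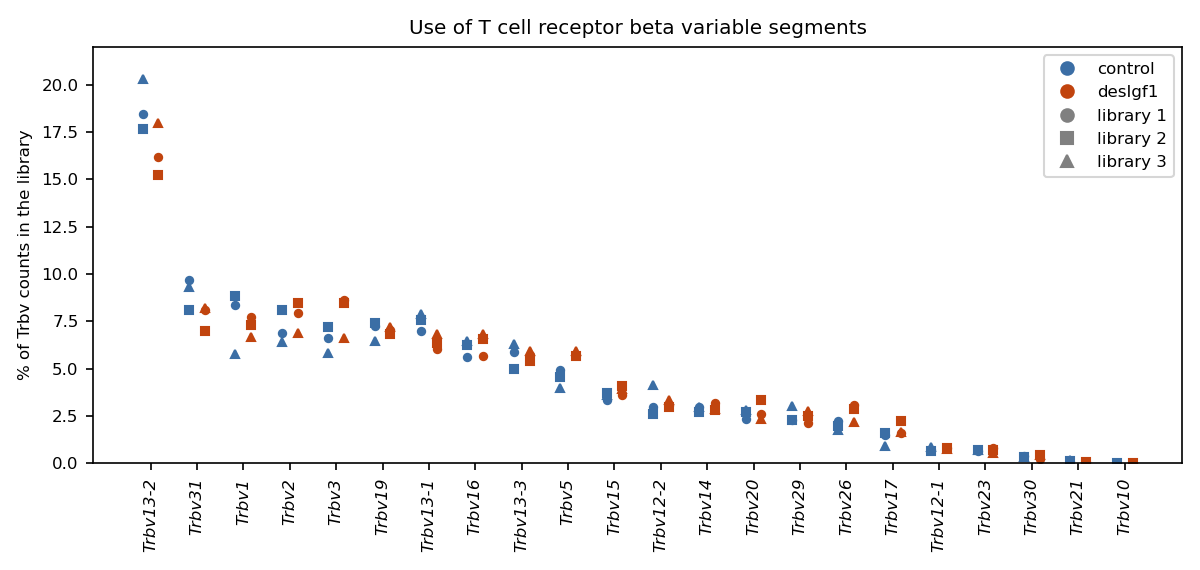
Share of each Trbv segment in the Trbv counts of a library, in percent, with colour for the group and a symbol for the library number. Trbv13-2 leads in all 6 libraries at 15.2 to 20.3%, and the next segments lie below 10 percent in both groups.

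Beyond the members, 113 genes of the pathway were read from 6 lists, and 112 of them could be tested (all but Homer2). In edgeR 0 passed the adjusted threshold, with and without the replicate block, limma voom called 0 and DESeq2 called 4, Ksr1, Camk4, Tespa1 and Rasa3, at adjusted p of 0.0280, 0.0362, 0.0362 and 0.0464. At an unadjusted p under 0.05, 11 were higher with desIgf1 (4.75% of all tested genes) and 4 were lower (3.42%), and with the block 22 were higher (9.02%) and 7 lower (5.29%). The groups did not overlap for 14 genes that were higher (7.31% of all tested genes) and 9 that were lower (6.18%), and the median log2 fold change was 0.07. Sh2d2a, Itch, Dgke and Cyld are named after their values were seen.

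Among the 16 further adaptors and scaffolds, 1 was higher (Tespa1) and 3 were lower (Lax1, Sh3bp2 and Sh2d2a) at an edgeR unadjusted p under 0.05. Of all tested genes, 4.75% were higher and 3.42% lower by this measure. Tespa1, which encodes a partner of LAT needed in thymocytes, was at 36.0, 50.6 and 45.4 CPM in the desIgf1 libraries, against 20.6, 24.3 and 32.2 CPM in the controls. All 3 desIgf1 libraries lay above the controls, with a log2 fold change of 0.78 (0.31 to 1.24; edgeR unadjusted p 0.00502, adjusted p 0.402). The inhibitory adaptor Lax1 and the adaptor Sh3bp2 were lower in each pair, with log2 fold changes of -0.42 (-0.79 to -0.06) and -0.33 (-0.62 to -0.04).

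Among the 21 further kinases, exchange factors and brakes, 3 were higher (Rnf128, Itch and Dgke) and 1 was lower (Rasa3) by the same measure (4.75% and 3.42% of all tested genes). Rasa3, a RAS GTPase-activating protein, was at 149, 125 and 141 CPM in the desIgf1 libraries, against 280, 160 and 258 CPM in the controls. Every desIgf1 library was below every control, with a log2 fold change of -0.75 (-1.22 to -0.28; edgeR unadjusted p 0.00689, adjusted p 0.430). Its relative Rasa2 gave 0.31 (-0.09 to 0.72). Rnf128, which encodes the anergy-linked ubiquitin ligase GRAIL, was at 0.851, 1.85 and 0.951 CPM against 0.395, 0.563 and 0.143 CPM, a low level in both groups, with a log2 fold change of 1.71 (0.43 to 2.98; edgeR adjusted p 0.505).

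Of the 19 calcium and calcineurin genes tested, 1 was higher and 0 were lower by the same measure (4.75% and 3.42% of all tested genes). That gene, Camk4, a calmodulin-dependent kinase, was at 130, 135 and 109 CPM in the desIgf1 libraries, against 85.0, 77.5 and 95.1 CPM in the controls. The groups did not overlap, and the log2 fold change was 0.54 (0.25 to 0.83; edgeR unadjusted p 0.00293, adjusted p 0.378). The calcium pump gene Atp2b4 and the calcineurin subunit gene Ppp3cb were higher in each pair, at 0.36 (-0.17 to 0.89) and 0.31 (-0.01 to 0.64), with overlapping groups. For 2 genes of this list the groups did not overlap and desIgf1 was lower (6.18% of all tested genes).

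In the RAS and ERK list of 16 genes, 2 were higher (Ksr1 and Map2k1) and 0 lower by the same measure (4.75% and 3.42% of all tested genes). The groups did not overlap for 4 genes that were higher and 2 that were lower (7.31% and 6.18% of all tested genes). Ksr1, a scaffold of the ERK cascade, was at 84.5, 83.1 and 85.5 CPM in the desIgf1 libraries, against 57.4, 56.5 and 68.3 CPM in the controls. It had the smallest adjusted p of the 112 genes in edgeR, 0.360 (unadjusted 0.00268), with groups that did not overlap and a log2 fold change of 0.47 (0.22 to 0.72). Map2k1 (MEK1) gave 0.26 (0.03 to 0.50) and the RAS relative Rras2 gave -0.43 (-1.06 to 0.21).

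Inhibitors of NF-kB were also among the genes read. Tnfaip3, which encodes the deubiquitinating enzyme A20, was at 202, 246 and 160 CPM in the desIgf1 libraries, against 142, 132 and 142 CPM in the controls, with a log2 fold change of 0.55 (0.19 to 0.91; edgeR unadjusted p 0.00829, adjusted p 0.452). Nfkbie and Nfkbia, inhibitors that hold NF-kB in the cytoplasm, gave 0.38 (0.06 to 0.70) and 0.31 (0.02 to 0.60). Cyld, another deubiquitinating enzyme that limits NF-kB, gave 0.34 (0.07 to 0.60). Each of these 4 genes was higher in every desIgf1 library than in every control. Of the 21 genes for actin at the synapse, 0 were higher and 0 lower at an edgeR unadjusted p under 0.05 (4.75% and 3.42% of all tested genes). Their log2 fold changes lay between -0.18 and 0.18. The groups did not overlap for 0 genes that were higher and 2 that were lower (7.31% and 6.18% of all tested genes).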

How the data were processed

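RNA from 6 libraries was sequenced after a stranded mRNA kit (TruSeq), per the labels' protocols. The deposited values are raw read counts per Ensembl gene, 1 library per file and not normalized, with 5 summary lines that name no gene and stayed out of library sizes and tests (reads in no gene 13.5 to 15.7% and ambiguous 0.712 to 0.761% of uniquely placed reads). Multiply placed alignments, 46.4 to 48.7% of all entries, are absent from the gene counts. Per the submitters' processing notes, the build was GRCm38 (mm10) and the tools were HTSeq 0.7.2, STAR 2.5.3, R 3.4.3, DESeq2 1.18.1, Trim Galore 0.4.5 and SAMtools 0.1.18. Tool roles, annotation release and strand setting were not given in the sources used here; the names of the count files hold the word reverse, with no source that says it is the strand setting. GENCODE M21 matched 37693 of 39179 identifiers. Promoter windows came from RefSeq (GRCm38.p6).

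Groups and replicate numbers follow the titles. No label says that the libraries of a group are separate cultures or animals, so the p-values reflect the spread among the 6 libraries, which may be technical. Libraries of 1 group were not copies of each other (chi-square per degree of freedom 40.5 to 130). All genes were fitted with edgeR 4.0.16 in R 4.3.3 (TMM scaling, genes kept by filterByExpr at a minimum count of 10, two-sided robust quasi-likelihood test, residual degrees of freedom 4), with Benjamini-Hochberg adjustment over all 13846 tested genes and a threshold of 0.05. Intervals cover 95%. CPM use TMM-scaled totals, sums of squares log2 CPM with a prior count of 2. The code was tested on simulated data. Across genes, the deviations from the group mean of desIgf1 and control libraries with the same number correlated at 0.593, 0.318 and 0.555 (numbers 1, 2 and 3). The numbers were taken as pairs on this check, since no label says so. The fit with the number as a block has 2 residual degrees of freedom and called 44 genes. Alternatives were DESeq2 1.42.0, voom of limma 3.58.1, other scaling factors, no filter, and leaving out libraries.

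The members, gene lists and markers were chosen with earlier results of these data known. Values per library are given for the CD3 and constant genes, Cd4, Lck, Zap70, Lat, and members with groups that do not overlap or an unadjusted p under 0.05 with or without the block. Up to 3 genes of each further list with the smallest p under 0.05 in the blocked fit, and the 3 Trbv segments with the highest mean share over all 6 libraries, are named (with desIgf1 alone, Trbv3 and Trbv2 lay above the second and the third of them). Other members were named to account for all 43. The counts of 1 further list and 1 marker of another cell type are not reported here.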

Additional observations from a re-analysis of the deposited data

How the results depend on the processing

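In edgeR, 0 genes, 0 members and 0 further pathway genes were called with DESeq2 size factors, with upper-quartile factors and after leaving out each library in turn, and limma voom also called 0. DESeq2 called 208 genes, 2 members and 4 further pathway genes, and edgeR without the filter on low counts called 16 genes and 0 members. The replicate block called 44 genes, 0 members and 0 further pathway genes. The replicate block without both number 1 libraries called 72 genes, 0 members and 0 further genes, without number 2 it called 620 genes, 2 members and 5 further genes, and without number 3 it called 1069 genes, 3 members and 11 further genes; the cause was not tested. The median log2 fold change of the members lay between -0.03 and 0.07 over all alternatives. Among the 18 members rerun by name, log2 fold changes that crossed 0 without 1 library each ranged from -0.045 to 0.094 for Cd3e, -0.095 to 0.035 for Cd4, -0.078 to 0.16 for Lat, -0.073 to 0.15 for Lck, -0.15 to 0.029 for Trbc1, -0.20 to 0.0047 for Trbc2 and -0.21 to 0.070 for Zap70. With the replicate block and 1 number left out, the range was -0.077 to 0.13 for Cd3e and -0.039 to 0.011 for Cd4. The median level of the members was 77.6 RPKM with the union of exons and 119 RPKM with the longest transcript. Each member had at least 626 counts in every library, and the number of libraries, 3 a group, limits these comparisons.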
